A study of Mus musculus with 30 samples.

Results

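The 3 soy-based diets formed a ladder of dietary methionine, and hepatic expression was followed along it in 18 livers, 6 per diet, of the 30 livers sequenced. All mice were male C57BL/6J and singly housed. Mice of the 3 soy diets were put first on the Soy-20% diet, and mice of the casein diets on Cas-20%. They were placed on their final diet at 12 weeks of age for 12 weeks, and livers were taken at 6 months of age after a 4 h fast. Soy-10% (labelled 10Soy, 11.5% soy) supplied 0.13 g methionine and 0.13 g cysteine per 100 g, Soy-20% (20Soy, 20% soy with no added sulfur amino acid) supplied 0.22 g of each, and Soy-20% + SAA (20Soy_SAA, 20% soy with added methionine and cysteine) supplied 0.58 g methionine and 0.41 g cysteine. From Soy-10% to Soy-20%, protein rose together with methionine and cysteine. From Soy-20% to Soy-20% + SAA, methionine and cysteine rose and soy protein stayed at 20%. Protein and methionine therefore cannot be told apart on the lower step, nor methionine and cysteine on either, and the Soy-20% mice, unlike the other 2 groups, never changed diet at 12 weeks. Each diet had 10 mice, of which 6 gave a library, so mice are the replicates. Casein-fed livers (6 on Cas-20%, with 0.57 g methionine and 0.41 g cysteine, and 6 on Cas-5%, with 0.15 and 0.1 g) are used below as a separate set of animals. The study's printed diet composition is slightly lower for Soy-20% + SAA, with methionine at 0.57 g, and for methionine on Cas-5%.

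Methionine is an essential amino acid. The liver turns it into S-adenosylmethionine, the methyl donor of most methylation reactions, and passes the remaining homocysteine either back to methionine or through cystathionine to cysteine, glutathione and taurine. When an essential amino acid runs short, uncharged transfer RNA activates the kinase GCN2, translation initiation slows, and the transcription factor ATF4 induces genes for amino acid synthesis and transport, aminoacyl-tRNA synthetases and the hormone FGF21.

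The 3 diets were scored 1, 2 and 3, and a linear trend in the score was fitted per gene to the raw counts with edgeR. For each gene the middle diet was then placed between the ends by the ratio of 2 fitted log2 differences, Soy-20% minus Soy-10% (the lower step) over Soy-20% + SAA minus Soy-10%. A position of 0 puts Soy-20% at the Soy-10% level and a position of 1 puts it at the Soy-20% + SAA level. Genes at 0.25 or less are said to sit with the low end, genes at 0.75 or more with the high end, and the others between. Among genes with a trend, the genes next to these limits were *Smim14* (0.249) and *Tmc8* (0.2505) at the lower one and *Hebp1* (0.748) and *mt-Tl2* (0.752) at the upper one. Soy libraries held 9362715 to 14565542 counts, with a median of 10741066. Libraries 3 to 6 of Soy-20% + SAA stood apart, since counts there rose with 3′-end GC content by 0.0619 to 0.206 log2 per 10% GC, against −0.0288 and −0.0275 in libraries 1 and 2 and −0.0576 to 0.0163 in the other soy libraries. Values of genes and lists that rest on the top diet are therefore mostly given with all 18 livers and with 14 livers, in which libraries 1 and 2 alone stand for Soy-20% + SAA. Both fits share the Soy-10% and Soy-20% livers. Where members of a list are counted by position, the calls and positions are those with 18 livers only.

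With 18 livers, 2377 of 12210 genes had a methionine trend (19.5%), the adjusted p being 0.05 or less. Among them 1170 rose with methionine (9.58%) and 1207 fell (9.89%). The middle diet sat with the low end in 1081 of them (45.5%), between the ends in 1130 (47.5%) and with the high end in 166 (6.98%), and the median position was 0.29. With 14 livers, 315 of 12696 genes had a trend (2.48%), 156 rising (1.23%) and 159 falling (1.25%). There the middle diet sat with the low end in 11 genes (3.49%), between in 242 (76.8%) and with the high end in 62 (19.7%), with a median position of 0.57. The share placed with the low end thus differed between the fits with and without libraries 3 to 6. The fit of 14 livers also has fewer livers on the top diet, so genes that change only on the upper step pass less easily. The cause of the difference was not tested. A total of 262 genes (2.15% of those tested) passed in both fits, which is 11.02% of the calls with 18 livers and 83.2% of those with 14, and 137 of them rose and 125 fell. With 18 livers 20 of these 262 sat with the low end, 187 between and 55 with the high end, and with 14 livers 9, 197 and 56. The same class was given by both fits to 185 of the 262 (70.6%). A fit of all 18 livers with the GC slope of each library as a covariate called 366 genes, 20 with the low end, 284 between and 62 with the high end.

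**Figure D1:**
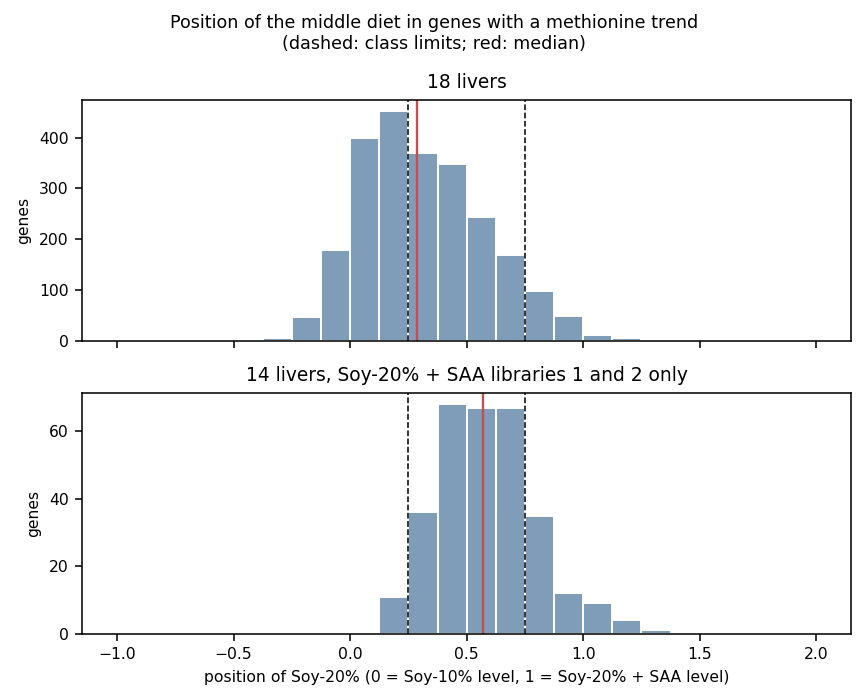
Number of genes with a methionine trend (adjusted p of 0.05 or less) by the position of Soy-20% between Soy-10% (0) and Soy-20% + SAA (1), with 18 livers (top, 2377 genes) and with 14 livers (bottom, 315 genes). Dashed lines mark 0.25 and 0.75, the red line marks the median, which is 0.29 in the top panel and 0.57 in the bottom one.

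Genes that sat with the low end and fell were AT-rich at their 3′ ends. The last 200 transcript bases had a median GC of 33% in the 710 falling low-end genes, against 45% in the 371 rising low-end genes, 41.5% in the 72 falling high-end genes, 40.75% in the 94 rising high-end genes and 40.5% over all genes tested. In the upper step, Soy-20% + SAA minus Soy-20%, the median log2 difference of genes with 20 to 25% GC was −0.29 with 18 livers and −0.02 with 14, and that of genes with 50 to 55% GC was 0.10 and −0.03. Across genes, the upper step correlated with 3′ GC at r = 0.295 over 12191 genes with 18 livers and at r = −0.0201 over 12673 genes with 14, and the lower step at 0.0246 and 0.0203. These are descriptions across genes of the same libraries. The upper step alone called 1236 genes (10.1%), 438 rising (3.59%) and 798 falling (6.54%), with 18 livers. With 14 livers edgeR called 0, at 998 genes with an unadjusted p under 0.05. With the 12 livers of this step fitted alone, all 6 top-diet libraries kept, edgeR called 1 gene, at 2892 with an unadjusted p under 0.05, and leaving out single livers gave 201 (without Soy-20% + SAA liver 5) to 2438 calls (without liver 1). With 2 libraries on the top diet, a step that misses the threshold is not shown to be absent.

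**Figure D2:**
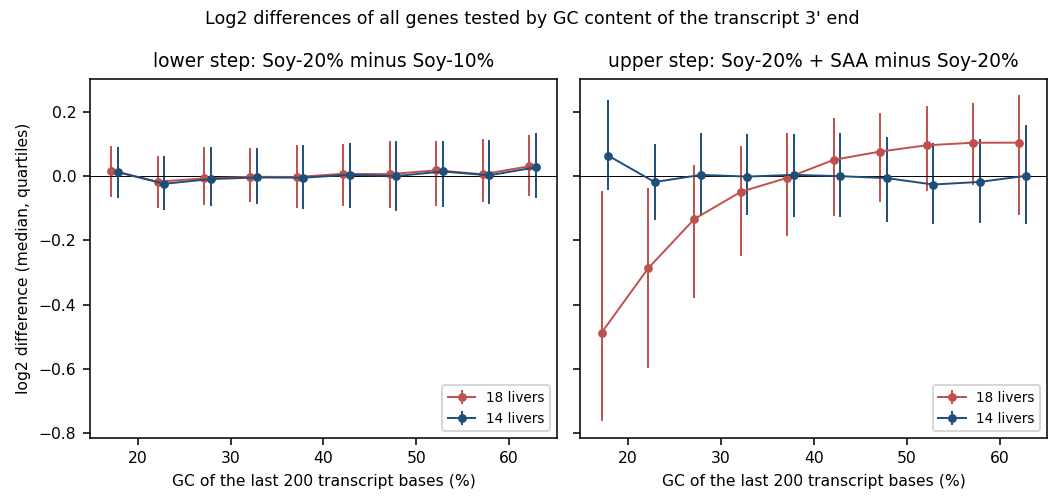
Median log2 difference (points) and quartiles (bars) of all genes tested by GC content of the last 200 transcript bases, for the lower step (left) and the upper step (right), with 18 livers in red and 14 livers in blue. The upper step falls to −0.49 in the bin from 15 to 20% GC (24 genes) with 18 livers, and the lower step stays near 0 in every bin with either set.

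Several genes of the amino acid response were placed with the high end. *Psat1* (phosphoserine aminotransferase, of serine synthesis), *Asns* (asparagine synthetase), *Fgf21* and *Nupr1* (a stress-induced chromatin protein) were high on Soy-10% and low on both 20% diets. They are members of a list of 38 ATF4 targets, of which 31 were tested, 3 rose and 13 fell with methionine. With 14 livers none rose and 8 fell. Of the 16 members called with 18 livers 7 sat with the high end, 5 between and 4 with the low end. The list's median log2 difference between the end diets was −0.34 with 18 livers and −0.24 with 14, against 0.01 and −0.01 over all genes. ATF4 pairs with C/EBP proteins on an element that reads TGATGNAAN. Searched on both strands of the RefSeq promoters (GRCm38.p6, 250 bases before to 50 after the start), the element was found in 3.95% of 32851 promoters and in 9 of the 26 tested list members with an entry: *Aars* (2 matches), *Asns*, *Atf3*, *Chac1*, *Fgf21*, *Gars*, *Nupr1*, *Trib3* and *Vldlr*. *Psat1* was not among them. The list holds ATF4 targets by choice, so these shares are not a test. Windows before the RefSeq start of 3 of them are shown because these genes carry the high-end fall. The windows are written 5′ to 3′ on the strand of the gene, with the element in capitals. In *Asns* (chr6:7693210-7693277, minus strand) the element reads on the gene's strand 23 to 15 bases before the RefSeq start. In *Fgf21* (chr7:45615576-45615675, minus strand) and *Nupr1* (chr7:126625527-126625626, minus strand) it reads on the opposite strand, 140 to 132 and 111 to 103 bases before that start, with the same 9 letters in both. The gene spans given below are from GENCODE, whose starts can differ from those of RefSeq. The *Nupr1* window and the *Asns* element lie inside these spans, and the *Fgf21* window lies before its span. For *Nupr1* and *Asns* the element is therefore before the RefSeq start only. A match is a description of the letters only.
*Asns*: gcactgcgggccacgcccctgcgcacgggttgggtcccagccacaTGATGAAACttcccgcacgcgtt
*Fgf21*: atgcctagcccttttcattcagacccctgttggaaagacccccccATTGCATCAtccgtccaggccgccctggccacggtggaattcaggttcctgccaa
*Nupr1*: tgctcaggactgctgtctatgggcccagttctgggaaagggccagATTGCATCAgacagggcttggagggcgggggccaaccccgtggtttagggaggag

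In what follows, the values given per diet are the lowest, the median and the highest normalized count of its 6 livers. *Psat1* (chromosome 19, 15904678 to 15947337) was at 26.4, 56.5 and 93.1 on Soy-10%, 4.02, 6.35 and 12.6 on Soy-20%, and 1.94, 4.13 and 8.39 on Soy-20% + SAA. Every Soy-10% liver lay above every liver of the other 2 diets, which overlapped. Its trend was −2.05 log2 per diet step (SE 0.22, adjusted p = 1.3e-05, and −2.33 log2 with adjusted p = 0.00039 in 14 livers) and its position 0.80 with 18 livers and 0.87 with 14. *Asns* (chromosome 6, 7675169 to 7693254) was at 91.02, 155 and 209 on Soy-10%, 15.1, 21.9 and 29.6 on Soy-20%, and 3.86, 14.8 and 50.8 on Soy-20% + SAA, so that the Soy-10% livers again stood alone and the Soy-20% livers fell inside the range of the top diet. The lower step of *Asns* was −2.79 log2 (SE 0.39, adjusted p = 0.0011) and the upper step −0.01 log2 (SE 0.46, adjusted p = 0.99, and 0.34 log2 with 14 livers), a position of 1.0 with 18 livers and 1.14 with 14. *Fgf21* (chromosome 7, 45613886 to 45615490) was at 87.1, 144 and 344 on Soy-10%, 20.9, 43.7 and 53.7 on Soy-20%, and 9.58, 21.5 and 60.2 on Soy-20% + SAA. Its 4 lowest libraries on the top diet were numbers 3 to 6, at 9.58 to 22.3, and libraries 1 and 2 read 60.2 and 27.6. Its trend was −1.41 log2 per diet step (SE 0.19, adjusted p = 0.00013) with 18 livers and −1.35 log2 per diet step (adjusted p = 0.0099) with 14 livers, and its position 0.79 with 18 livers and 1.09 with 14. *Nupr1* (chromosome 7, 126623249 to 126630861) was at 36.6, 65.7 and 81.5 on Soy-10%, 14.1, 17.01 and 33.9 on Soy-20%, and 8.60, 13.3 and 22.4 on Soy-20% + SAA, with a trend of −1.04 log2 per diet step (SE 0.14, adjusted p = 0.0001, and −1.39 log2 with adjusted p = 0.00039 in 14 livers). Its position was 0.78 with 18 livers and 0.63 with 14, so its class changed to between. *Pcp4l1*, a relative of the Purkinje cell protein gene *Pcp4* that is in no list, was at 115, 163 and 235 on Soy-10%, 34.96, 50.9 and 63.3 on Soy-20%, and 20.5, 33.7 and 57.5 on Soy-20% + SAA. Its Soy-10% livers also lay above all others, its trend was −1.17 log2 per diet step (SE 0.12, adjusted p = 1.2e-05, and −1.34 log2 with adjusted p = 0.00015 in 14 livers) and its position 0.76 with 18 livers and 0.78 with 14.

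**Figure D3:**
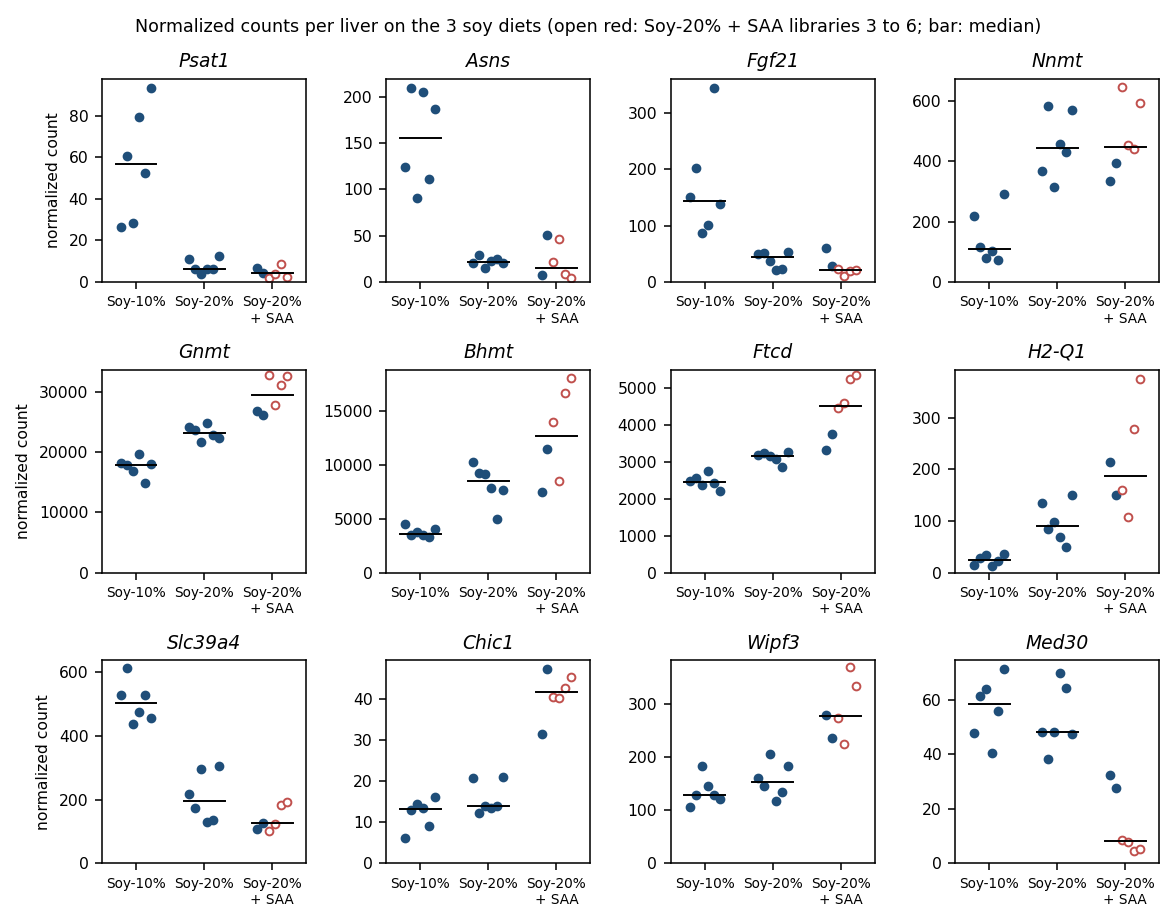
Normalized count of 12 genes in each liver on Soy-10%, Soy-20% and Soy-20% + SAA (6 livers each), with libraries 3 to 6 of the top diet as open red points and the median as a bar. *Psat1*, *Asns*, *Fgf21* and *Nnmt* show the middle diet beside the top one, *Gnmt*, *Bhmt*, *Ftcd*, *H2-Q1* and *Slc39a4* show it between (position with 18 livers), and *Chic1*, *Wipf3* and *Med30* show it beside Soy-10%.

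Other genes rose and sat with the high end. *Nnmt*, which methylates nicotinamide and so consumes S-adenosylmethionine, was at 74.1, 110.1 and 291 on Soy-10%, 315, 444 and 584 on Soy-20%, and 333, 448 and 645 on Soy-20% + SAA. All Soy-10% livers lay below all others, the lower step was 1.62 log2 (SE 0.27, adjusted p = 0.0081) and the upper step 0.07 log2 (SE 0.26, adjusted p = 0.9, and −0.32 log2 with 14 livers). Its trend of 0.82 log2 per diet step (SE 0.18, adjusted p = 0.0049) had an adjusted p of 0.057 with 14 livers. *Ntrk2*, the receptor of brain-derived neurotrophic factor, was at 0, 2.87 and 6.09 on Soy-10%, 10.5, 17.4 and 105 on Soy-20%, and 9.58, 39.3 and 75.5 on Soy-20% + SAA, with a trend of 1.39 log2 per diet step (SE 0.38, adjusted p = 0.016) that had an adjusted p of 0.053 with 14 livers. *Fam83f* was at 1.04, 2.26 and 5.08 on Soy-10%, 5.22, 8.40 and 24.03 on Soy-20%, and 4.84, 15.6 and 26.99 on Soy-20% + SAA (adjusted p = 0.0052 with 18 livers and 0.033 with 14), and *Tafa5*, a secreted chemokine-like protein, at 6.46, 9.30 and 12.3 on Soy-10%, 17.2, 21.8 and 34.7 on Soy-20%, and 17.2, 26.95 and 46.6 on Soy-20% + SAA (adjusted p = 0.0027 and 0.12). In all 4 genes the lowest Soy-20% liver lay above the highest Soy-10% liver, while 1.34% of all genes tested showed no overlap in either direction. These 4 were chosen for a large end difference and a high-end position, so the separation follows in part from that choice and is not a test. The lower step was called for *Nnmt* and *Tafa5* (adjusted p = 0.029) and not for *Ntrk2* and *Fam83f*.

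The lower step compares Soy-10% with Soy-20%, with an error estimated from all 18 livers, and it called 53 genes (0.434%), 35 higher (0.287%) and 18 lower (0.147%) on Soy-20% than on Soy-10%. When only these 12 livers were fitted, 103 genes were called, 51 of the 53 among them. DESeq2 called 131, the fit of 14 livers 111, and leaving out single livers gave 27 (without Soy-10% liver 5) to 65. A gene called on the lower step has a large lower step by choice, and 33 of the 53 sat at a position of 0.75 or more and 20 between. In 39 of the 53 the 2 diets did not overlap, as in 1.34% of all genes tested, and both counts come from the same contrast. The urea cycle enzymes *Ass1* and *Asl*, singled out after their values were seen, rose here: *Ass1* was at 2317, 2756 and 3407 on Soy-10%, 4110.1, 5065 and 6365 on Soy-20%, and 4211, 5095 and 6037 on Soy-20% + SAA, with a lower step of 0.87 log2 (SE 0.12, adjusted p = 0.0011) and an upper step of 0.01 log2 (SE 0.12, adjusted p = 0.98, and −0.11 log2 with 14 livers). For *Asl* the lower step was 0.46 log2 (SE 0.09, adjusted p = 0.023) and the upper step −0.00 log2 (SE 0.09, adjusted p = 1, and −0.07 log2 with 14 livers). The *Ass1* ranges of the 2 upper diets overlapped and both lay above Soy-10%. The bile acid transporter *Slc10a2* (lower step 1.04 log2, SE 0.19, adjusted p = 0.011) and the biliary transcription factor *Sox9* (lower step 0.65 log2, SE 0.09, adjusted p = 0.0015) rose too, and the interferon-response genes *Usp18* (−0.83 log2, SE 0.15, adjusted p = 0.011) and *Ifi27l2a* (−0.89 log2, SE 0.16, adjusted p = 0.011) fell. Summed biliary markers, *Sox9* among them, were at 266 to 352 normalized counts on Soy-10%, 393 to 548 on Soy-20% and 346 to 519 on Soy-20% + SAA, without overlap between the 2 lower diets, and 1 of 3 tested was called on the lower step. The gene called was *Sox9* itself. It also had the highest counts of these markers, so the sum is not independent of it. Medians over the 18 livers were 251 for *Sox9*, 138 for *Spp1*, 8.53 for *Epcam*, 5.49 for *Krt19* and 3.25 for *Krt7*. The part of biliary cells in these values was not tested. On the upper step 7 of the 53 genes (13.2%, against 10.1% of all genes) were also called, 6 of them in the same direction, namely *Bhmt*, *Gnmt*, *Cyp4a12b*, *Dct*, *H2-Q1* and *Dmgdh*. Leaving out single livers in turn took the lower step of *Asl* over the threshold in 7 of 18 fits (adjusted p of up to 0.08 without Soy-10% liver 5) and that of *Dmgdh* in 5 (0.079 without Soy-20% liver 1). The upper step of *Bhmt* was lost in 6 of the fits (0.11 without Soy-20% + SAA liver 6), that of *H2-Q1* in 3 (0.061 without the same liver), that of *Cyp4a12b* in 8 (0.07 without Soy-20% + SAA liver 4) and that of *Dmgdh* in 2 (0.053).

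**Figure D4:**
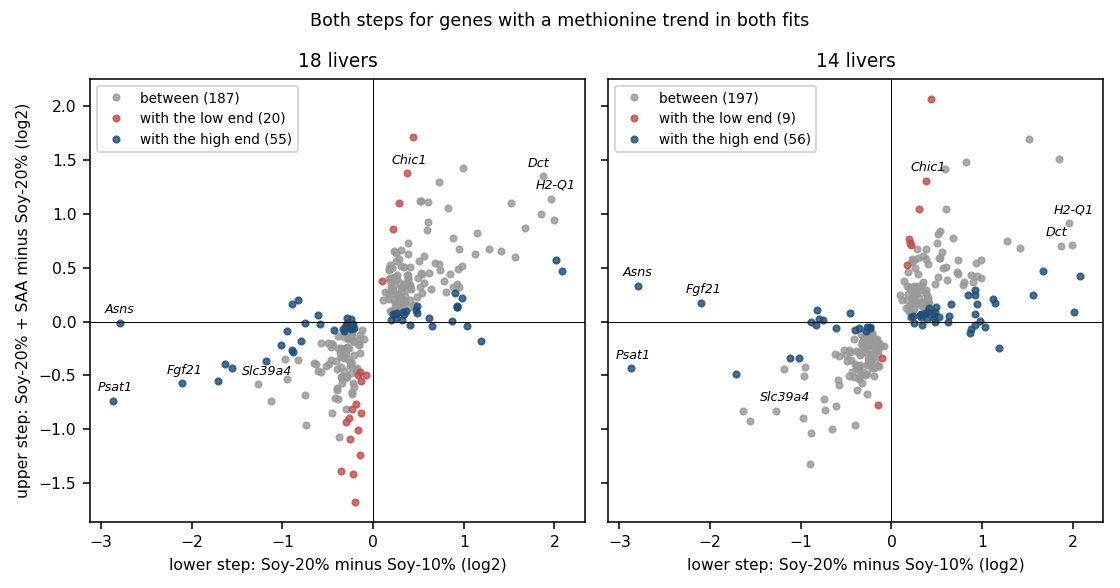
Lower step against upper step (log2) for the 262 genes with a methionine trend in both fits, with 18 livers (left) and 14 livers (right), coloured by where the middle diet sat. *Psat1*, *Asns* and *Fgf21* lie far out on the lower step, with upper steps of −0.74, −0.01 and −0.57 with 18 livers and −0.43, 0.34 and 0.18 with 14. The group of falling low-end genes on the left panel (15 genes) shrinks to 2 on the right.

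In 5 genes no 2 of the 3 diets overlapped, all of them rising with methionine (0.041% of the genes tested), and no gene did so while falling (0.0%). They were *Gnmt*, *Ftcd*, *Slc38a4*, *Serpina1d* and *Usp34*. With only libraries 1 and 2 to stand for the top diet, which makes non-overlap easier, 9 genes did so while rising (0.0737%), these 5 among them, and 3 while falling (0.0246%), namely *Nupr1*, *Atp6ap2* and *Slc39a4*. *Gnmt* (chromosome 17, 46725664 to 46729168), glycine N-methyltransferase, which disposes of excess S-adenosylmethionine, was at 14940.3, 17934 and 19642 on Soy-10%, 21615, 23235 and 24853 on Soy-20%, and 26119.8, 29430.4 and 32821 on Soy-20% + SAA. Both of its steps passed, at 0.40 log2 (SE 0.07, adjusted p = 0.014) and 0.34 log2 (SE 0.07, adjusted p = 0.015, and 0.19 log2 with 14 livers), and its position was 0.54 with 18 livers and 0.68 with 14. *Ftcd* (chromosome 10, 76575648 to 76590338), of histidine breakdown and folate metabolism, was at 2215, 2452 and 2746 on Soy-10%, 2857, 3168 and 3258 on Soy-20%, and 3319, 4513 and 5338 on Soy-20% + SAA, with a trend of 0.43 log2 per diet step (SE 0.05, adjusted p = 1.3e-05) and 0.28 log2 per diet step (adjusted p = 0.0015) with 14 livers. The amino acid transporter *Slc38a4* was at 6135, 6628 and 7097 on Soy-10%, 7106, 7619 and 8106 on Soy-20%, and 8118, 9550.2 and 9967 on Soy-20% + SAA, with a trend of 0.25 log2 per diet step (SE 0.03, adjusted p = 3.4e-05) and 0.24 log2 per diet step (adjusted p = 0.0017) with 14 livers. *Serpina1d*, one of the closely related alpha-1-antitrypsin genes whose reads may be shared with its copies, had a trend of 0.21 log2 per diet step (SE 0.03, adjusted p = 0.00017, and 0.15 log2 with adjusted p = 0.028 in 14 livers), and the ubiquitin protease *Usp34* one of 0.14 log2 per diet step (SE 0.03, adjusted p = 0.0023), which had an adjusted p of 0.098 with 14 livers.

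Several enzymes that handle methionine and its methyl group rose with it. Of 23 genes of the methionine cycle and transsulfuration, 7 rose and 4 fell with 18 livers, and 4 rose and none fell with 14. *Bhmt*, which remethylates homocysteine with betaine, was at 3338, 3633 and 4485 on Soy-10%, 5028, 8500.5 and 10286 on Soy-20%, and 7534, 12739 and 18129.8 on Soy-20% + SAA. Its lower step was 1.13 log2 (SE 0.19, adjusted p = 0.0081), its upper step 0.63 log2 (SE 0.19, adjusted p = 0.039, and 0.21 log2 with 14 livers), and the Soy-10% livers lay below all others. Its position was 0.64 with 18 livers and 0.84 with 14, so its class changed from between to the high end. The creatine-forming methyltransferase *Gamt* rose by less, with a trend of 0.29 log2 per diet step (SE 0.04, adjusted p = 0.00026) and 0.18 log2 per diet step (adjusted p = 0.036) with 14 livers, and its position was 0.30 with 18 livers and 0.46 with 14. The betaine product's own enzyme, *Dmgdh* (dimethylglycine dehydrogenase, singled out after its values were seen), had a lower step of 0.49 log2 (SE 0.10, adjusted p = 0.022) and an upper step of 0.41 log2 (SE 0.10, adjusted p = 0.02, and 0.13 log2 with 14 livers), with the same change of class, at 0.55 with 18 livers and 0.79 with 14.

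Among 13 genes of cysteine oxidation, taurine and hydrogen sulfide, 3 rose and 2 fell, with 2 and 1 in the 14 livers. *Csad*, which makes the precursor of taurine, was highest on Soy-10%, at 14258, 15368 and 16819 on Soy-10%, 9645, 11250.0 and 12067 on Soy-20%, and 6154, 7791 and 11427 on Soy-20% + SAA. All Soy-10% livers lay above all others, the trend was −0.44 log2 per diet step (SE 0.06, adjusted p = 0.00014) and −0.44 log2 per diet step (adjusted p = 0.0012) with 14 livers, and the position was 0.55 with 18 livers and 0.57 with 14. The sulfurtransferases *Mpst* and *Tstd1* moved the other way, with trends of 0.33 log2 per diet step (SE 0.05, adjusted p = 0.00017, and 0.22 log2 with adjusted p = 0.037 in 14 livers) and 0.34 log2 per diet step (SE 0.06, adjusted p = 0.0011, and 0.31 log2 with adjusted p = 0.016 in 14 livers). *Tstd1* stayed near the low end, at a position of 0.26 with 18 livers and 0.25 with 14, while that of *Mpst* was 0.50 with 18 livers and 0.88 with 14. Glutathione and NRF2 target genes fell or did not pass: 9 of 26 fell and none rose with 18 livers, where 13 had an unadjusted p under 0.05, and 5 fell with 14. DESeq2 gave 9 trend calls in either direction with 18 livers. *Gclc*, the rate-limiting enzyme of glutathione synthesis, was at 5735, 6261 and 6675 on Soy-10%, 4325, 5178 and 6241 on Soy-20%, and 3012, 4232 and 5089 on Soy-20% + SAA, with a trend of −0.31 log2 per diet step (SE 0.06, adjusted p = 0.0018) and −0.19 log2 per diet step (adjusted p = 0.05) with 14 livers. The glutathione transferases *Gsta2* (trend −0.51 log2 per diet step, SE 0.08, adjusted p = 0.00044, and −0.59 log2 with adjusted p = 0.0099 in 14 livers) and *Gstm1* (−0.26 log2 per diet step, SE 0.05, adjusted p = 0.0019, and −0.34 log2 with adjusted p = 0.0056 in 14 livers) fell as well. Both have close relatives that may share reads.

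Genes of the urea cycle and amino acid breakdown formed a rising group. Of 44 tested, 25 rose and 2 fell with 18 livers, and 8 rose and none fell with 14. Of the 27 members called with 18 livers 19 lay between the ends, 7 sat with the high end and 1 with the low end. The list's median log2 difference between the end diets was 0.29 with 18 livers and 0.19 with 14. With 18 livers its median was 0.21 log2 on the lower step and 0.08 on the upper. With 14 livers the median of the upper step was −0.01, so the placement between the ends is not shown without libraries 3 to 6. *Prodh*, of proline breakdown, was at 346, 453 and 536 on Soy-10%, 520.0, 684 and 912 on Soy-20%, and 666, 879.7 and 988 on Soy-20% + SAA, a trend of 0.47 log2 per diet step (SE 0.07, adjusted p = 0.00017, and 0.42 log2 with adjusted p = 0.019 in 14 livers), and *Oat*, ornithine aminotransferase, at 1711, 2358 and 3556 on Soy-10%, 2838, 3147 and 3689 on Soy-20%, and 3963, 4944 and 7559.8 on Soy-20% + SAA, a trend of 0.56 log2 per diet step (SE 0.08, adjusted p = 0.00017, and 0.46 log2 with adjusted p = 0.011 in 14 livers). For *Oat* the top diet lay above both others without overlap and the position was 0.34 with 18 livers and 0.40 with 14. For *Prodh* it was 0.68 with 18 livers and 0.92 with 14. In the serine and folate list of 16 genes, 3 rose and 5 fell, and 1 and 5 with 14 livers. *Psph*, the last enzyme of serine synthesis, fell with −0.46 log2 per diet step (SE 0.07, adjusted p = 0.00017, and −0.43 log2 with adjusted p = 0.016 in 14 livers), and *Ggh*, which trims folate polyglutamates, with −0.39 log2 per diet step (SE 0.05, adjusted p = 0.00016, and −0.32 log2 with adjusted p = 0.015 in 14 livers). *Psph* and *Ggh* lay between the ends, at 0.56 with 18 livers and 0.66 with 14 and 0.53 with 18 livers and 0.71 with 14, unlike *Psat1*. *Aldh1l1*, which oxidizes formyl-tetrahydrofolate and was singled out after its values were seen, rose with a lower step of 0.46 log2 (SE 0.08, adjusted p = 0.014).

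Many lipogenic genes rose with 18 livers, and fewer with 14. Of 22 genes of de novo lipogenesis and SREBF1 targets, 14 rose and 1 fell with 18 livers. With 14 livers 4 rose and none fell, where 1.23% of all genes rose, and 15 of the list had an unadjusted p under 0.05. The list's median was 0.55 log2 on the lower step and 0.24 on the upper with 18 livers, against 0.00 and 0.01 over all genes. With 14 livers the median of the upper step was −0.05, so its sign turned. *Fasn*, fatty acid synthase, was at 711, 1195 and 2012 on Soy-10%, 1095, 2382 and 8006 on Soy-20%, and 2738, 4868 and 9854 on Soy-20% + SAA. The middle diet overlapped both ends, the trend was 1.04 log2 per diet step (SE 0.22, adjusted p = 0.0036) with 18 livers and 0.92 log2 per diet step (adjusted p = 0.13) with 14 livers, and the position was 0.69 with 18 livers and 1.05 with 14. *Scd1*, stearoyl-CoA desaturase, was at 23558, 30233 and 48668 on Soy-10%, 46954, 61635 and 79433 on Soy-20%, and 44402, 70373 and 144089 on Soy-20% + SAA, with a trend of 0.64 log2 per diet step (SE 0.13, adjusted p = 0.0033) and 0.62 log2 per diet step (adjusted p = 0.025) with 14 livers. The fatty acid desaturases *Fads2* and *Fads1* showed the other order, with positions of 0.21 with 18 livers and 0.33 with 14 for *Fads2* and 0.28 with 18 livers and 0.43 with 14 for *Fads1*. *Fads2* was at 81.5, 108 and 132 on Soy-10%, 106, 127 and 175 on Soy-20%, and 173, 243 and 423 on Soy-20% + SAA, an upper step of 1.10 log2 (SE 0.19, adjusted p = 0.0094, and 0.59 log2 with 14 livers). Its libraries 1 and 2 on the top diet read 221 and 173, one above the Soy-20% range and one inside it.

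Of 25 cholesterol synthesis genes and SREBF2 targets, 15 rose and none fell with 18 livers, 13 of them between the ends and 2 with the low end. With 14 livers edgeR called 0, at 12 with an unadjusted p under 0.05, although no member was lower on the top diet than on Soy-10%, and the list's median difference between these diets was 0.60 log2 with 18 livers and 0.45 with 14. *Mvd*, of the mevalonate pathway, was at 63.96, 106 and 236 on Soy-10%, 70.02, 164 and 503 on Soy-20%, and 263, 401 and 765 on Soy-20% + SAA, a trend of 0.92 log2 per diet step (SE 0.19, adjusted p = 0.0036) and 0.60 log2 per diet step (adjusted p = 0.22) with 14 livers. The trend of *Fdps*, farnesyl diphosphate synthase, was 0.56 log2 per diet step (SE 0.12, adjusted p = 0.0049) and 0.41 log2 per diet step (adjusted p = 0.18) with 14 livers. Fatty acid oxidation and PPARA targets split, with 4 rising and 6 falling of 29, and 1 and 2 with 14 livers. *Cyp4a12b*, a fatty acid hydroxylase with close copies that may share reads, was at 115, 207 and 312 on Soy-10%, 372, 558 and 618 on Soy-20%, and 602, 845 and 1101 on Soy-20% + SAA, and its trend was 1.03 log2 per diet step (SE 0.11, adjusted p = 1.3e-05) and 1.13 log2 per diet step (adjusted p = 0.00039) with 14 livers. Its Soy-10% livers lay below all others and its position was 0.68 with 18 livers and 0.67 with 14. *Acot1*, a cytosolic acyl-CoA thioesterase, fell by 0.71 log2 per diet step (adjusted p = 0.00026, and 0.011 with 14 livers), and *Cpt1a*, of mitochondrial fatty acid entry, rose by 0.25 (adjusted p = 0.0053, and 0.24 with 14 livers) from a middle diet at a position of 0.13 with 18 livers and 0.17 with 14.

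The largest differences between the end diets, among genes that both fits placed between the ends, were rises of *Dct*, *H2-Q1*, *Treh* and *Pls1* and falls of *Marco*, *Slc39a4*, *Notumos* and *Zdhhc2*. *Dct*, dopachrome tautomerase, a melanocyte enzyme, was at 6.46, 12.5 and 26.6 on Soy-10%, 22.5, 53.7 and 67.4 on Soy-20%, and 69, 114 and 239.6 on Soy-20% + SAA, with a trend of 1.56 log2 per diet step (SE 0.17, adjusted p = 1.3e-05) and 1.32 log2 per diet step (adjusted p = 0.0016) with 14 livers. Its top-diet livers lay above both other diets. The lower step of *Dct*, 1.87 log2 (SE 0.39, adjusted p = 0.029), was not called in 9 of the 18 fits that left out 1 liver, with an adjusted p of up to 0.096 without Soy-10% liver 2. *H2-Q1*, a class I histocompatibility gene with related copies, was at 13.6, 24.5 and 36.1 on Soy-10%, 50.4, 90.9 and 149.5 on Soy-20%, and 107, 187 and 376 on Soy-20% + SAA, with steps of 1.96 log2 (SE 0.34, adjusted p = 0.0096) and 1.14 log2 (SE 0.28, adjusted p = 0.021, and 0.91 log2 with 14 livers). Its list of MHC class I and antigen presentation genes had 2 rising and 4 falling of 18 with 18 livers, and with 14 only *H2-Q1*, which rose. *Treh* (trehalase) and *Pls1* (an actin bundling protein) were low, at medians of 1.31, 6.13 and 11.3 and of 2.47, 7.55 and 19.1 counts over the 3 diets, with trends that passed in both fits. On the falling side, the zinc importer *Slc39a4* (chromosome 15, 76612383 to 76617384) was at 437, 502 and 612 on Soy-10%, 131, 195 and 305 on Soy-20%, and 101, 125 and 194 on Soy-20% + SAA. All Soy-10% livers lay above all others, the trend was −0.94 log2 per diet step (SE 0.10, adjusted p = 1.3e-05) and −1.13 log2 per diet step (adjusted p = 0.00015) with 14 livers, and no other zinc gene of the 12 tested was called with 14 livers. *Zdhhc2*, a palmitoyltransferase, was at 42.7, 51.98 and 84.3 on Soy-10%, 21.1, 31.9 and 48.1 on Soy-20%, and 11.6, 15.9 and 23.96 on Soy-20% + SAA, a trend of −0.84 log2 per diet step (SE 0.11, adjusted p = 9.4e-05, and −0.76 log2 with adjusted p = 0.0083 in 14 livers), and *Notumos*, a noncoding RNA that may share reads with an overlapping gene, had −0.86 log2 per diet step (SE 0.16, adjusted p = 0.0012), with an adjusted p of 0.073 with 14 livers.

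*Marco*, a scavenger receptor of Kupffer cells, was at 62.6, 91.5 and 669.7 on Soy-10%, 28.1, 73.7 and 354 on Soy-20%, and 15.5, 39.3 and 47.9 on Soy-20% + SAA. Soy-10% liver 6 held the highest value, and without it the trend was −0.63 log2 per diet step (adjusted p = 0.148). The summed level of 18 Kupffer and immune markers was 5525 to 9242 on Soy-10%, 3652 to 7424 on Soy-20% and 5559 to 7131 on Soy-20% + SAA. With 18 livers 2 of 17 tested fell, *Marco* and *C1qc*, near the share of all genes that fell (9.89%). With 14 livers edgeR called none of them (1 had an unadjusted p under 0.05). The *C1qc* trend was lost in 13 of the 18 fits that left out a liver. In bulk liver, fewer cells of a type and less RNA per cell cannot be told apart. Summed hepatocyte markers had medians of 1009666, 998243 and 993453 over the diets. None of 11 had a trend with 18 livers by edgeR (4 had an unadjusted p under 0.05, and 3 passed with DESeq2). With 14 livers edgeR called 1 of them, which rose, and 4 had an unadjusted p under 0.05. Pancreatic acinar markers summed to 208.5 to 10382 on Soy-10% and to at most 462 on the other diets, and the highest sum was in Soy-10% liver 4, ahead of 372 in the next. Of these only *Cela1* was tested, at 205, 232 and 988 on Soy-10%, 198, 323 and 456 on Soy-20%, and 186, 342 and 413 on Soy-20% + SAA. The part of these markers in the results was not tested.

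Low-end genes that passed in both fits were few. *Chic1* (chromosome X, 103356476 to 103396092), a palmitoylated membrane protein, was at 6.09, 13.2 and 16.1 on Soy-10%, 12.2, 14 and 21.1 on Soy-20%, and 31.5, 41.8 and 47.5 on Soy-20% + SAA. All 6 top-diet livers, libraries 1 and 2 included at 31.5 and 47.5, lay above both other diets. Its upper step was 1.38 log2 (SE 0.19, adjusted p = 0.0026, and 1.31 log2 with 14 livers), its lower step 0.38 log2 (SE 0.22, adjusted p = 0.65), its trend 0.79 log2 per diet step (adjusted p = 0.011) with 14 livers, and its position 0.22 with 18 livers and 0.22 with 14. *Wipf3*, an actin regulator, was at 107, 129 and 183 on Soy-10%, 118, 153 and 206 on Soy-20%, and 226, 277 and 370.1 on Soy-20% + SAA, again with no overlap between the top diet and the others, and had a trend of 0.55 log2 per diet step (SE 0.08, adjusted p = 0.00019) and 0.42 log2 per diet step (adjusted p = 0.019) with 14 livers. *Nipal1*, a magnesium transporter, was at 8.34, 16.1 and 36.1 on Soy-10%, 3.14, 25.3 and 76.5 on Soy-20%, and 33.5, 81.2 and 188 on Soy-20% + SAA, where the diets overlapped, and its trend was 1.14 log2 per diet step (SE 0.25, adjusted p = 0.0053) and 1.21 log2 per diet step (adjusted p = 0.024) with 14 livers. *Gpr12*, an orphan receptor, was near 10 counts and had an adjusted p of 0.0076 with 18 livers and 0.1 with 14. The 3′ GC of *Chic1*, *Wipf3*, *Gpr12* and *Nipal1* was 45, 47, 38.5 and 28.5%.

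The falling low-end genes chosen by the same rule lost their call with libraries 1 and 2 alone. *Adam9*, a membrane metalloprotease with a 3′ GC of 16%, was at 202, 279 and 296 on Soy-10%, 165, 276 and 350.1 on Soy-20%, and 6.53, 12.1 and 196 on Soy-20% + SAA. Libraries 3 to 6 read 6.53 to 16.5, libraries 1 and 2 196 and 126. The trend of *Adam9* was −1.02 log2 per diet step (SE 0.32, adjusted p = 0.03) with 18 livers and −0.28 log2 per diet step (adjusted p = 0.25) with 14 livers, and it was also lost without any 1 of libraries 3 to 6, at an adjusted p of up to 0.061. *Med30*, a subunit of Mediator with a 3′ GC of 21%, was at 40.7, 58.6 and 71.2 on Soy-10%, 38.3, 48.2 and 70.02 on Soy-20%, and 4.66, 8.19 and 32.5 on Soy-20% + SAA. Its libraries 1 and 2, at 32.5 and 27.6, lay below every Soy-20% liver and above libraries 3 to 6, and the trend was −0.90 log2 per diet step (SE 0.20, adjusted p = 0.0057) and −0.34 log2 per diet step (adjusted p = 0.16) with 14 livers. For *Nup62cl* (3′ GC 32%) the trend was −0.88 log2 per diet step (SE 0.19, adjusted p = 0.0052) and −0.45 log2 per diet step (adjusted p = 0.23) with 14 livers, and for the transcription factor *Tcf24* (3′ GC 33.5%) −0.93 log2 per diet step (SE 0.26, adjusted p = 0.02) and −0.74 log2 per diet step (adjusted p = 0.3) with 14 livers. The *Tcf24* trend was also lost without Soy-10% liver 2 (adjusted p = 0.087). With each library's 3′ GC slope as a covariate in the 18 livers, the adjusted p was 0.18 for *Adam9*, 0.092 for *Med30*, 0.18 for *Nup62cl* and 0.24 for *Tcf24*, against 0.0017 for *Chic1*, 0.011 for *Wipf3* and 0.045 for *Nipal1*. Of the 710 falling low-end genes, 15 kept their trend call with 14 livers. One of these, the glutathione transferase *Gsta4* (3′ GC 47.5%), singled out after its values were seen, sat with the low end in both fits, at 0.24 with 18 livers and 0.16 with 14, with a trend of −0.31 log2 per diet step (SE 0.07, adjusted p = 0.005, and −0.37 log2 with adjusted p = 0.043 in 14 livers).

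Of the cytosolic ribosomal protein genes that passed, all but 1 fell, by small amounts. Of 82 tested, 22 fell and 1 rose with 18 livers, and 14 fell and none rose with 14. The top diet was lower than Soy-10% in 70 of 82 with 18 livers and in 80 with 14, and the median difference was −0.15 and −0.23 log2. *Rps18* was at 2259.9, 2548 and 2765 on Soy-10%, 1812, 2097 and 2463 on Soy-20%, and 1332, 1611 and 1952 on Soy-20% + SAA, with a trend of −0.32 log2 per diet step (SE 0.05, adjusted p = 0.00019) and −0.22 log2 per diet step (adjusted p = 0.016) with 14 livers. *Rpl19* (trend −0.26 log2 per diet step, SE 0.04, adjusted p = 0.00065) and *Rps23* (−0.26 log2 per diet step, SE 0.05, adjusted p = 0.0021) had an adjusted p of 0.055 and 0.058 with 14 livers. Many ribosomal genes have processed copies that may share reads. Respiratory chain subunits gave 13 rising and 6 falling of 78 with 18 livers and 0 with 14 by edgeR, at 7 with an unadjusted p under 0.05, and the sign of their median difference turned from 0.10 to −0.06.

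Drug-metabolizing enzymes moved both ways with methionine. Of 32 cytochromes P450 of families 1 to 3, 2 rose and 6 fell with 18 livers, and none rose and 5 fell with 14. Of all genes tested, 9.58% rose and 9.89% fell with 18 livers, and 1.23% and 1.25% with 14. The median P450 difference between the end diets was 0.02 log2 with 18 livers, where 15 of 32 lay below 0, and −0.05 log2 with 14. *Cyp2c37* (chromosome 19, 39992424 to 40012243) was at 1305, 1455 and 1675 on Soy-10%, 1027, 1075 and 1373 on Soy-20%, and 532, 690.4 and 877 on Soy-20% + SAA. All 6 top-diet livers lay below every other liver, libraries 1 and 2 included at 696 and 754, and the trend was −0.55 log2 per diet step (SE 0.06, adjusted p = 1.3e-05) and −0.47 log2 per diet step (adjusted p = 0.00039) with 14 livers, although the 3′ GC was 30.5%. *Cyp2c40* had its larger step below Soy-20%, at −1.64 log2 (adjusted p = 0.056), and *Cyp2j9* above it, at −0.80 log2 (SE 0.16, adjusted p = 0.013, and −0.33 log2 with 14 livers), with libraries 1 and 2 at 46.8 and 48.6 and libraries 3 to 6 at 26.2 to 29.7. Members of the Cyp2c family may share reads. Of 41 phase II conjugating enzymes, 8 rose and 11 fell, with 2 and 8 in the 14 livers. Their median difference between the end diets was −0.002 log2 with 18 livers, where 22 of 41 lay below 0, and −0.08 log2 with 14. The sulfotransferase *Sult1a1* rose, with a trend of 0.42 log2 per diet step (SE 0.06, adjusted p = 0.00016) and 0.28 log2 per diet step (adjusted p = 0.018) with 14 livers, and the glucuronosyltransferases *Ugt2b5* (−0.65 log2 per diet step, SE 0.10, adjusted p = 0.0002, and −0.39 log2 per diet step, adjusted p = 0.002 with 14 livers) and *Ugt2b36* (−0.39 log2 per diet step, SE 0.06, adjusted p = 0.00035, and −0.28 log2 with adjusted p = 0.006 in 14 livers) fell.

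The other lists were small and held few calls each. With 19.5% of all genes tested called in 18 livers (9.58% rising and 9.89% falling), only the zinc list lay above that share. Growth hormone and IGF1 axis genes had 1 rising (*Igfbp4*) and 1 falling (*Lepr*) of 17, circadian clock genes 2 rising (*Cry2* and *Tef*) and 1 falling (*Clock*) of 19, ER chaperones none rising and 3 falling (*Ern1*, *Sdf2l1* and *Dnajb9*) of 23, zinc genes 1 rising (*Slc39a10*) and 3 falling of 12, and acute phase genes 2 rising (*Serpina3n* and *Orm3*) of 20. Several of these calls did not hold when single livers were left out. *Orm3* was lost in 14 of the 18 such fits (adjusted p of up to 0.15, without Soy-20% + SAA liver 5) and *Dnajb9* in 9 (0.12 without Soy-10% liver 6), *Clock* in 4 (0.072) and *Slc39a10* in 3 (0.061), both most clearly without Soy-20% + SAA liver 5, and *Igfbp4* and *Tef* in 1 (0.051 and 0.054 without its liver 6). With 14 livers edgeR called 0 of the growth hormone, clock, ER and acute phase genes, where 3, 2, 4 and 3 had an unadjusted p under 0.05.

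**Figure D5:**
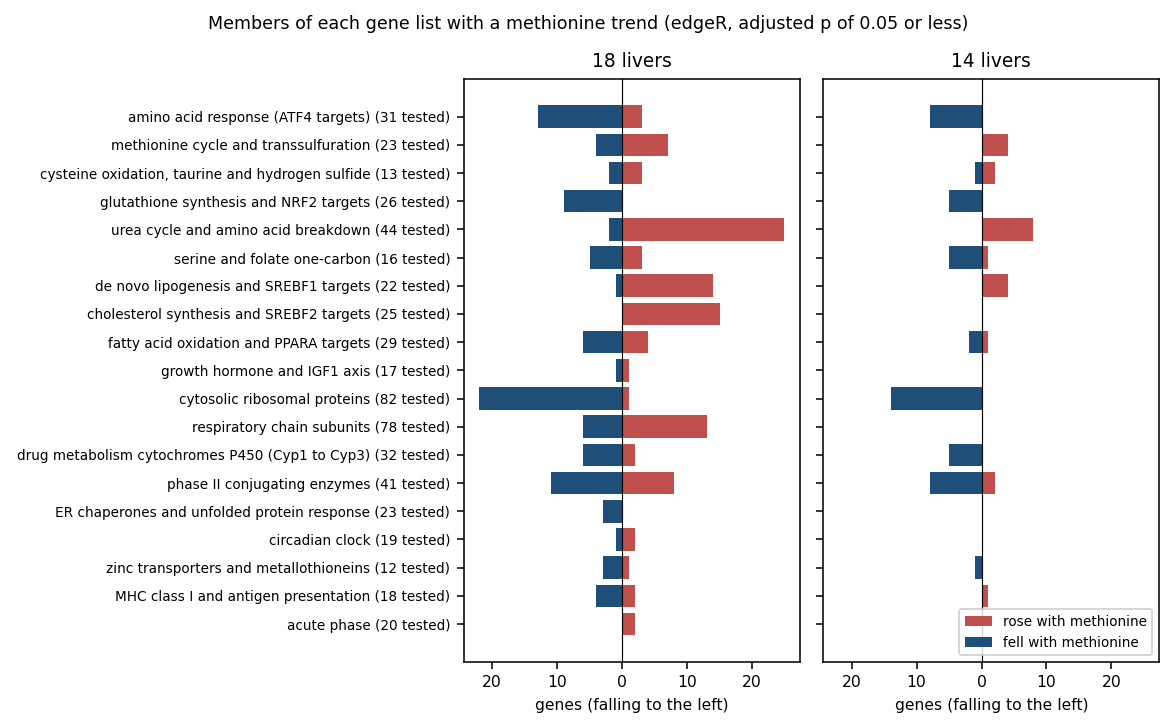
Number of members of each gene list that rose (right, red) or fell (left, blue) with methionine, with 18 livers and with 14 livers. The urea cycle and amino acid breakdown list has 25 rising members of 44 in the left panel and 8 in the right one, and the ribosomal list 22 and 14 falling members of 82, while all genes tested give 9.58% rising and 9.89% falling with 18 livers and 1.23% and 1.25% with 14.

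Curvature, the departure of Soy-20% from the line between the ends, was called for 0 genes by edgeR (0.0%), at 1368 genes with an unadjusted p under 0.05, and for 16 by DESeq2. *Dusp1*, a phosphatase induced by stress and feeding signals, came closest and was singled out after its values were seen. It was at 161, 193 and 262 on Soy-10%, 264, 346 and 465 on Soy-20%, and 164, 237 and 276 on Soy-20% + SAA. Its lower step was 0.80 log2 (SE 0.15, adjusted p = 0.019) and its upper step −0.63 log2 (SE 0.15, adjusted p = 0.02, and −0.41 log2 with 14 livers), so that it peaked on Soy-20%. These 2 calls were lost in 5 and 2 of the 18 fits that left out a liver, at an adjusted p of up to 0.061 without Soy-10% liver 2 and 0.053 without Soy-20% + SAA liver 5. Its departure from the line gave a curvature of −1.43 log2 (adjusted p = 0.12). *Cyp26a1*, which degrades retinoic acid, was at 33.2, 65.3 and 80.9 on Soy-10%, 42.1, 80.9 and 394 on Soy-20%, and 9.25, 24.8 and 51.9 on Soy-20% + SAA, an adjusted p of 0.24, with its highest value in 1 Soy-20% liver.

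The casein livers are other animals, and Cas-5% differs from Cas-20% in protein, methionine and cysteine, so they allow a look at the same genes outside the soy ladder. Cas-5% and Cas-20% differed in 3008 of 12076 genes (24.9%), 1397 higher (11.6%) and 1611 lower (13.3%) on Cas-5%. Of the 262 genes with a trend in both soy fits 256 were tested there, and 206 (80.5%) were called in the direction of the soy ladder, that is, toward the low-methionine side on Cas-5%, and none in the other. Of the 2377 genes with a trend in 18 livers, 960 of 2347 tested (40.9%) were called in that direction and 38 against it. By where the middle diet sat with 18 livers, the share called in the soy direction was 15.8% of the falling and 34.3% of the rising low-end genes, 44.7% and 60.1% of those between, and 77.5% and 68.8% of the high-end genes. The lower-step genes gave 47 of 53 (88.7%) in the soy direction and 0 against it. The upper-step genes gave 291 of 1223 (23.8%) in the soy direction and 85 against it. Cas-5% minus Cas-20% was 5.02 log2 (adjusted p = 1.3e-11) for *Psat1*, 3.76 log2 (adjusted p = 1.3e-08) for *Asns*, −5.51 log2 (adjusted p = 1.3e-08) for *Dct*, −4.95 log2 (adjusted p = 3.3e-09) for *Nnmt* and −2.57 log2 (adjusted p = 8.5e-07) for *Chic1*. It was −0.08 log2 (adjusted p = 0.88) for *Adam9*, 0.01 log2 (adjusted p = 0.99) for *Med30* and −0.26 log2 (adjusted p = 0.63) for *Gsta2*.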

How the data were processed

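Livers of 30 mice were measured with QuantSeq, which reads the 3′ end of messenger RNA, and 18 of them, on the 3 soy diets, form the ladder. The raw counts per gene were deposited by the authors, who made them with the Lexogen QuantSeq pipeline on mm10. The aligner and annotation release are not given in the sources used here. A table of normalized signal (counts divided by size factors), deposited by the authors, was used for the values per liver and never tested. The submitters' processing notes name DESeq2 1.30 and R 4.0.3. The file of raw counts held 14173 genes with a total of at least 90 counts each. Coordinates, 3′ GC (last 200 transcript bases) and 1684 symbols came from GENCODE M21 (GRCm38).

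Counts were tested in R 4.3.3 with edgeR 4.0.16 (TMM, filterByExpr, quasi-likelihood F-test, Benjamini-Hochberg adjustment over all genes tested, threshold 0.05), with the diet score for the trend and diet as a factor for the steps, curvature and position. All p-values for single genes are from this test, and a step is a fitted log2 difference. On simulated data with 12111 genes, a log2 difference of 1 between the ends was recovered in 92.5% of 200 genes for the trend, with 5 other calls, in 63.3% of 150 genes for the lower step, 64.7% of 150 for the upper step and 58% of 100 for curvature. Genes scored for a step included ones on a straight line, whose single step was smaller than 1 log2. No 3′ GC shift was simulated, so the other calls do not measure false calls that such a shift could bring. The 3′ GC slope of a library is its log2 deviation regressed on 3′ GC. Precision is limited by 9362715 to 14565542 counts per library and 6 mice per diet.

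Members and gene lists were chosen with earlier results of these data known. Named genes are the 4 with the largest difference between the end diets per position class and direction, with at least 10 normalized counts in 1 diet, a trend call and the same class and direction in both fits at an unadjusted p of 0.05 or less with 14 livers, leaving out Gm and Rik names. To these were added up to 3 members per list with the smallest trend p, and 5 genes the study measured by PCR (*Fgf21*, *Asns*, *Psat1*, *Fasn* and *Scd1*). Some genes that met these criteria are not reported here. The other genes named were chosen after their values were seen. Alternatives were DESeq2 1.42.0, other library sets, GC slope as covariate, replicate number as block, methionine in g per 100 g as the score, other filters and scalings, other position limits, and leaving out each liver. Promoters came from RefSeq (GRCm38.p6).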

Additional observations from a re-analysis of the deposited data

Results flagged for a closer look

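In 240 sets of 6 livers (the named genes and the library totals, per diet), 15 had 1 liver far from the other 5 by Dixon's test, where chance gives about 1 in 20. On Soy-10%, the livers concerned were liver 5 for *Adam9* (lowest, 202 normalized counts), liver 2 for *Tcf24* (highest, 38.7), liver 6 for *Marco* (highest, 669.7), liver 4 for *Igfbp4* (highest, 17322), and liver 1 for *Igf1* (highest, 12764) and *Clock* (highest, 601). On Soy-20%, they were liver 1 for *Marco* (highest, 354) and *Fads1* (highest, 5057), liver 6 for *Ntrk2* (highest, 105), liver 3 for *Acot1* (highest, 787), *Cpt1a* (highest, 2535) and *Igfbp4* (highest, 18732), and liver 2 for its total of 12046128 counts. On Soy-20% + SAA, they were liver 6 for *Tcf24* (highest, 6.94) and liver 1 for *Fgf21* (highest, 60.2). The trends of *Marco* and *Tcf24* were lost without Soy-10% livers 6 and 2.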

How the results depend on the processing

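The middle diet's place depended on the top-diet libraries. The trend, called for 2377 genes, was called for 315 with libraries 1 and 2 of Soy-20% + SAA, 3621 with libraries 3 to 6, 366 with the 3′ GC slope as covariate and 197 with that slope and the replicate block. Low-end genes numbered 1081, against 11 and 2144 with these library sets, and high-end genes 166, against 62 with libraries 1 and 2 and 257 with limits of 0.33 and 0.67. For the lower step, 53 calls became 105 with the slope, 99 with slope and block, 131 with DESeq2, 111 and 87 with the library sets and 103 with the 12 livers alone. For the upper step, 1236 became 0 with the slope, 0 with slope and block and 0 with libraries 1 and 2 (1142, 905 and 998 genes had an unadjusted p under 0.05), 3559 with libraries 3 to 6 and 1 with the 12 livers alone. Curvature, at 0, reached 16 with DESeq2 and 1304 with libraries 3 to 6. The cause of these shifts was not tested, beyond fewer livers in some fits.

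Leaving out each liver gave 1437 (without Soy-20% + SAA liver 5) to 3056 (without liver 1) trend calls, with 1458 without liver 6. It gave 27 to 65 lower-step calls (under 36 without any 1 of Soy-10% livers 1 to 5 or Soy-20% livers 1, 4 and 6), 201 to 2438 upper-step calls (201, 245, 455 and 815 without Soy-20% + SAA livers 5, 6, 4 and 3, 401 and 563 without Soy-20% livers 4 and 5, and 2438 and 2168 without Soy-20% + SAA livers 1 and 2), 0 to 9 curvature calls and 2601 to 2888 casein calls.

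Of the 78 genes named by rule, 43 had a call unchanged with libraries 1 and 2, 44 with the slope and 76 with DESeq2, and 68 in every fit that left out 1 liver. No call of these genes was reversed in direction. Upper steps that were not called could change sign with libraries 1 and 2, as for *Fgf21* (−0.57 log2 with 18 livers and 0.18 with 14) and *Asns* (−0.01 and 0.34). The replicate numbers of the labels showed weak pairing of the livers at most: 4 of 18 same-number pairs had a correlation of deviations over 0.1 (range −0.158 to 0.179). Every pair of livers numbered 6 was among them, at 0.16, 0.179 and 0.159. The replicate block gave 2188 trend, 44 lower-step, 1229 upper-step, 0 curvature and 2656 casein calls. Counting depth limits genes of few counts, such as *Treh*.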
